A study of Homo sapiens with 6 samples.

Results

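Box C/D small nucleolar RNAs (snoRNAs) were described in 6 RNA-seq libraries of HEK293T cells, a human embryonic kidney line that carries the SV40 large T antigen. Members were the gene symbols that begin with SNORD and a number and that reached 1 RPKM (reads per kilobase of row per 1000000 reads) in 1 library or more. They numbered 127 of 252 such symbols and of 23204 symbols in all, and each symbol was represented by its row with the highest mean RPKM. Each group held 1 library, so differences between libraries have no replicate check and no test of conditions was possible. The plasmid arm held 4 libraries, named here by the 5 µg of plasmid that was transfected. The GFP library received the GFP plasmid without DDX3X, and the wild type, T275M and G302V libraries received GFP-DDX3X with the normal sequence or with the named substitution. The substitutions are those of the sample labels, and a legend of the study names another one in place of T275M for the RNA-seq, so the identity of that library is uncertain. Cells positive for GFP were sorted by flow cytometry 32 h after transfection. The siRNA arm held 2 libraries, with 48 h of control siRNA or of DDX3X siRNA and no sorting described. DDX3X, the DEAD-box RNA helicase that the study manipulates, was at 107 RPKM in the control siRNA library and at 31.3 RPKM in the DDX3X siRNA library. It was at 119 RPKM in the GFP library and at 1906 to 3279 RPKM in the libraries that received a DDX3X plasmid. The labels call the line neuronal. Of 10 neuronal markers, RBFOX3, SYN1, MAP2, STMN2 and ELAVL3 stayed below 1 RPKM in every library. The neurofilament subunits NEFL (109 to 140 RPKM) and NEFM (514 to 683 RPKM) were high, TUBB3 was at 5.60 to 9.28 RPKM, SYT1 at 1.62 to 2.59 and SNAP25 at 0.0721 to 1.38, and the keratins KRT8 and KRT18 were at 7.59 to 47.3 RPKM.

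Box C/D snoRNAs are short nuclear RNAs that guide the 2′-O-methylation of ribosomal and spliceosomal RNA. Their paired boxes C and D fold into a motif that is bound by SNU13, NOP56, NOP58 and the methyltransferase fibrillarin (FBL), and the bases just upstream of box D pair with the target. In vertebrates most are not transcribed from promoters of their own. They lie in introns of host genes, many of which encode ribosomal proteins, and are released by splicing, debranching and trimming of the ends. Some hosts, such as GAS5 and SNHG1, encode no protein, and their introns carry the conserved product.

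The sequences of the snoRNAs on which the results turn follow, read 5′ to 3′ from GRCh37 (hg19, the build of the tables) at the row coordinates and on the strand of the row. Capitals mark the core of box C, TGATG, where it starts and ends within the first 25 bases, and box D, CTGA, where it starts within the last 25. The first 3 are among the members with the most reads.
SNORD36B (RPL7A, chr9:136216949-136217019, plus strand): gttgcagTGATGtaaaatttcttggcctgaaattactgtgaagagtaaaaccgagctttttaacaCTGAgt
SNORD33 (RPL13A, chr19:49993874-49993956, plus strand): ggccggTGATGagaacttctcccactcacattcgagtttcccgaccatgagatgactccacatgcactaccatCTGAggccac
SNORD16 (RPL4, chr15:66795149-66795248, minus strand): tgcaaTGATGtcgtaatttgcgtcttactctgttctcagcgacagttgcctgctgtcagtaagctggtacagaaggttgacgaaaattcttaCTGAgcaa
The next 7 are among those that differed most between libraries.
SNORD10 (EIF4A1, chr17:7480129-7480276, plus strand): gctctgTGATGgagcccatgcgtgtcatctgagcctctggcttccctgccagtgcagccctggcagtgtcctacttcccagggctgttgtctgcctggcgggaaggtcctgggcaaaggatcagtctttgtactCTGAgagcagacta
SNORD45A (RABGGTB, chr1:76253574-76253657, plus strand): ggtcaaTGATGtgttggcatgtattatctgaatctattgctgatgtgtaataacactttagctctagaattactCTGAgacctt
SNORD100 (RPS12, chr6:133137941-133138016, plus strand): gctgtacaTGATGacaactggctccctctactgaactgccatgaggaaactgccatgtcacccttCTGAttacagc
SNORD119 (SNRPB, chr20:2443598-2443693, minus strand): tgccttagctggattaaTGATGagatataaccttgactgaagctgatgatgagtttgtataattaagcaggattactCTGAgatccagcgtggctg
SNORD84 (DDX39B, chr6:31508878-31508955, minus strand): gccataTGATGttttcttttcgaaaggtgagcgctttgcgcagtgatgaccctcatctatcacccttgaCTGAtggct
SNORD20 (NCL, chr2:232321155-232321234, minus strand): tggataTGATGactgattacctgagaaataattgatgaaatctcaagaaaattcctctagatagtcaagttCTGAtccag
SNORD51 (EEF1B2, chr2:207026605-207026674, plus strand): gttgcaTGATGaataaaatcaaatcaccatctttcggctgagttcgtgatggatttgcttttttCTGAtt
The last 3 are numbered relatives or neighbours in the same host gene, printed for comparison with those above.
SNORD36C (RPL7A, chr9:136217701-136217767, plus strand): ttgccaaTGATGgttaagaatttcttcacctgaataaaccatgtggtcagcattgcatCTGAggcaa
SNORD45C (RABGGTB, chr1:76252757-76252834, plus strand): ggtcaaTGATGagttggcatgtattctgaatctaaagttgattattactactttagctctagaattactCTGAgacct
SNORD101 (RPS12, chr6:133136446-133136518, plus strand): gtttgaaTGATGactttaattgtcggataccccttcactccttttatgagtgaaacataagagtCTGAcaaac

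The label fitted the sequences. Box C was found in 115 of the 127 members (90.6%), box D in 122 (96.1%) and both in 113 (89.0%). On the opposite strand of the same rows, both boxes were found in 2 (1.57%). The 80 H/ACA snoRNAs (SNORA symbols) at 1 RPKM or more held both boxes in 0 rows, and 286 other rows under 200 bases held both in 4 (1.40%). The longer form NTGATGA stood in the first 25 bases of 81 members (63.8%) and of 5 of these 286 rows (1.75%). A match is a description of these letters and not a test of function. Rows were 43 to 237 bases long, with a median of 75.

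Numbered relatives were compared by their longest run of identical bases, which any mismatch ends, and identity over whole rows was not measured. Of 100 number stems, 20 held more than 1 member, and over their 34 pairs the longest run of identical bases had a median of 18. SNORD36B and SNORD36C shared no run longer than 8. SNORD45C and SNORD45A shared 29 bases that run through box D. For 1 pair the rows were identical, so reads cannot be assigned between them.

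The members lay in 64 genomic clusters, in which neighbours were at most 20000 bases apart, and 28 clusters held 2 members or more. GENCODE placed 125 of the 127 within a host gene on the same strand, 63 hosts in all. Of these members, 39 were in ribosomal protein genes (counting RACK1), 37 in noncoding host genes, 6 in translation factor genes and 43 in other genes. SNORD124 and SNORD121B had no annotated host. The rows of 88 members met an exon of an annotated transcript on either strand. Of these, 1 row, that of SNORD4A, met an exon of a canonical transcript. The kit does not mark strand, so a read on a row may come from the snoRNA, from unspliced or retained host RNA, or from a gene on the other strand, as at the 3 rows that meet such an exon (SNORD97, SNORD4A and SNORD121B). Their part in the results was not tested. Among the 125 symbols that were not members, 106 belonged to the SNORD113, SNORD114, SNORD115 and SNORD116 families of the imprinted regions on chromosomes 14 and 15. Of these 106 symbols, 1 SNORD114 and 1 SNORD116 copy had any read, and neither had more than 2 reads over all libraries. SNORD3 (U3), SNORD13, SNORD14 and SNORD118 (U8) were not analysed here. Just inside the limit of 1 RPKM were SNORD53 at 1.38 and SNORD90 at 1.4985 RPKM in their highest library. Just outside were SNORD85 at 0.841 and SNORD91A at 0.693.

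The reads behind each row were recovered from RPKM and row length, which gave whole multiples of 1 step for 100% of the low rows that could be checked. The recovered depths ran from 43720000 reads for G302V to 180870000 for DDX3X siRNA. Members took 57338 reads in GFP, 59685 in wild type, 43231 in T275M, 39085 in G302V, 58536 in control siRNA and 151584 in DDX3X siRNA. These are between 0.0838% and 0.105% of a library. In CPM (recovered reads per 1000000 reads of the library), the sum was 1045 in GFP, 951 in wild type, 909 in T275M, 894 in G302V, 867 in control siRNA and 838 in DDX3X siRNA. GFP was the highest of the 6 and the order within the plasmid arm was GFP, wild type, T275M, G302V. In bulk RNA, a smaller share of cells with a given RNA and less of it per cell cannot be told apart. A sum of reads moves mainly with the few most abundant members, and the 6 with the highest mean RPKM held 39.3% (GFP) to 45.7% (control siRNA) of all member reads.

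Most of the abundant members came from ribosomal protein genes. SNORD36B, in an intron of RPL7A, had 84.3 CPM in GFP, 82.7 in wild type, 77.0 in T275M, 73.1 in G302V, 82.4 in control siRNA and 72.6 in DDX3X siRNA. SNORD33, in RPL13A, had 75.3, 72.4, 73.9, 78.9, 69.9 and 67.4 CPM in the same order. SNORD16, in RPL4, had 63.0 CPM (DDX3X siRNA) to 69.5 (wild type). No library stood apart for these 3, and none of them passed 2-fold in any comparison. Others among the 12 most abundant were SNORD32A, SNORD34 and SNORD35A (RPL13A), SNORD68 (RPL13), SNORD18A (RPL4), SNORD86 (NOP56), SNORD82 (NCL, nucleolin) and SNORD37 (EEF2, an elongation factor). Their means over the 6 libraries lay between 23.0 CPM for SNORD37 and 50.3 for SNORD32A.

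Levels differed widely within some families and hosts and little in others. On the RPKM scale, which corrects for row length, SNORD18A had a mean of 501 and SNORD18B of 8.05, although both lie in RPL4 and share a run of 19 bases. SNORD36B had 1108 and SNORD36C 37.8 RPKM, both in RPL7A. SNORD59B and SNORD59A, in ATP5F1B, were close at 218 and 197 RPKM.

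Members in short introns were the most abundant. Of 30 members whose canonical host intron was 250 bases or shorter, the median of the mean RPKM was 87.3, and 13 had 100 RPKM or more. The median was 30.7 RPKM for 33 members in introns of 251 to 500 bases, of which 8 had 100 RPKM or more. It was 13.2 RPKM for 56 members in longer introns, of which 5 had 100 RPKM or more. Across the 119 members with such an intron, Spearman's rho of level and intron length was -0.51. Against the level of the host gene it was 0.41 over 113 members, and the level divided by that of the host had a rho of -0.39 with intron length. Members of one host share that host's level, so these points are not independent, and a short intron also brings exon-derived host fragments closer to the row, whose part was not tested.

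**Figure D1:**
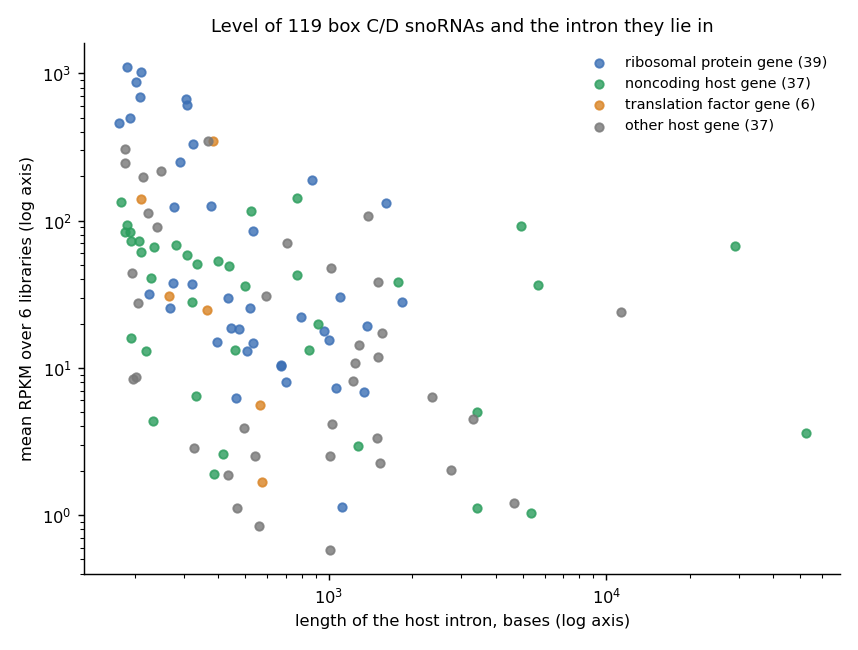
Mean RPKM over the 6 libraries (log axis) against the length in bases of the intron of the canonical host transcript (log axis) for the 119 members that have one, colored by kind of host gene. Each point is a member. The 8 members with the highest levels, from 459 (SNORD34) to 1108 RPKM (SNORD36B), sit in introns of 175 to 309 bases of ribosomal protein genes.

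The most members past 2-fold among the 7 comparisons were between the pair of control libraries, GFP and control siRNA. Members and all other genes were compared if either library reached 1 RPKM and either reached 10 reads, and were called past 2-fold at a difference in log2(RPKM + 1) of 1 or more. Of 121 members compared, 34 were higher in GFP and 0 lower, against 0.503% of all 12730 genes called in either direction. Rows under 200 bases that are not members, SNORA rows among them, are named short rows here, and 6.67% of 300 were called. By kind of row, 16.2% of 68 SNORA symbols and 5% of 180 microRNA rows were called, and 0 of 54 other rows under 200 bases. The median difference was 0.39 (log2) for members and 0.01 for all genes. For 65 members the 95% counting interval lay above 0, for 6 below, and for 50 it included 0. These intervals are exact (Clopper-Pearson) and cover counting error only. No such counts are given for all genes, so they do not set members apart from other genes. The 2 libraries differ in plasmid or siRNA, in 32 h or 48 h and in sorting, which cannot be told apart. The other plasmid libraries are compared with control siRNA as an alternative chosen after these values were seen. The wild type library had 22 members higher and 2 lower of 121 (0.711% of all genes called), T275M 15 higher and 1 lower of 119 (0.711% called) and G302V 7 higher and 3 lower of 119 (0.359% called). With DDX3X siRNA in place of control siRNA, 27 of 126 members were higher in GFP and 0 lower (0.888% called). These pairs share libraries and are not independent.

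SNORD10, in an intron of the translation initiation factor gene EIF4A1, differed most in log2(RPKM + 1). It had 335 reads in GFP, 334 in wild type, 214 in T275M, 168 in G302V, 62 in control siRNA and 215 in DDX3X siRNA. In CPM these are 6.11, 5.32, 4.50, 3.84, 0.918 and 1.19, so that all 4 plasmid libraries lay above both siRNA libraries. GFP was 6.65-fold above control siRNA, a difference in log2(RPKM + 1) of 2.55 with a counting interval of 2.20 to 2.91, while the row of EIF4A1 itself differed by 0.19. SNORD45A, in RABGGTB (a subunit of Rab geranylgeranyl transferase), had 2.02, 1.51, 2.23, 1.88, 0.296 and 0.780 CPM in the same order, again with every plasmid library above both siRNA libraries. Its difference between GFP and control siRNA was 2.47 (interval 1.89 to 3.06) on 111 and 20 reads, and that of RABGGTB was 0.30. With a pseudocount of 0.1 in place of 1, the difference was 2.74 for SNORD45A and 2.71 for SNORD10. SNORD100, in RPS12, had 2.28, 1.43, 1.39, 0.732, 0.415 and 0.536 CPM. GFP was the highest library and control siRNA the lowest, and G302V was the lowest of the plasmid arm. Its difference between GFP and control siRNA was 2.26 (interval 1.73 to 2.81), and that of RPS12 was 0.20.

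**Figure D2:**
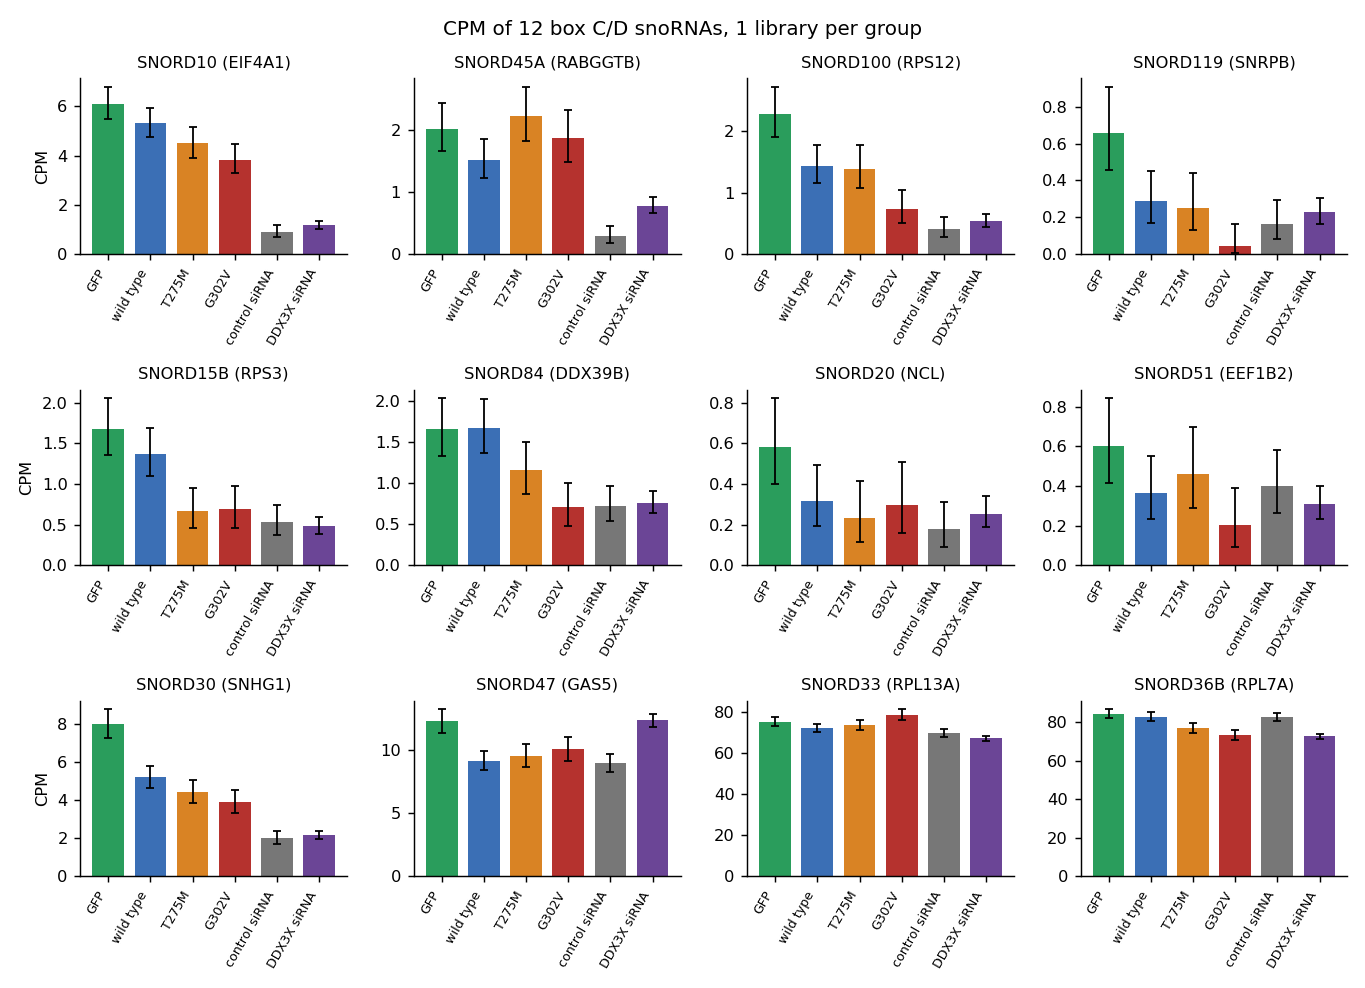
CPM (bar height, from 0, with a separate scale in each panel) of 12 members in the 6 libraries, with the host gene in parentheses and the exact Poisson 95% counting interval as an error bar. SNORD10, SNORD45A and SNORD30 are higher in all 4 plasmid libraries than in both siRNA libraries, whereas SNORD33 and SNORD36B keep nearly the same level throughout.

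Neighbours in one host differed to unequal extents. SNORD45C, which shares 29 bases with SNORD45A and the same host, differed by 0.11 between GFP and control siRNA, and SNORD45B by 1.80. In RPS12, SNORD101 differed by 0.33 where SNORD100 differed by 2.26. In RPL7A, the difference was 0.03 for SNORD36B, 1.08 for SNORD24 and 1.28 for SNORD36C. Among the 26 hosts with 2 members or more compared, 10 had members that lay at least 1 apart, and the widest spread was 2.36, in RABGGTB. Of 111 members with a value for the host gene, 88 lay above that of the host and 23 below, and 26 lay above it and 1 below it by 1 or more. None of the 54 hosts itself passed 2-fold, where 0.503% of all genes did. Their differences ran from -0.36 to 0.80.

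**Figure D3:**
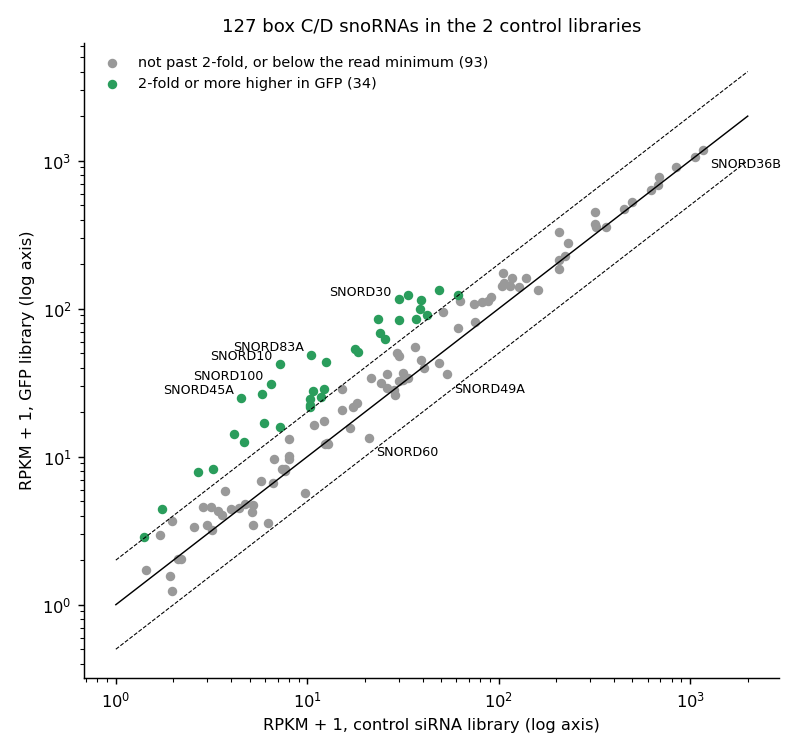
RPKM + 1 in the GFP library (log axis) against RPKM + 1 in the control siRNA library (log axis), with 1 point for each of the 127 members. The solid line marks equal values and the dashed lines a 2-fold difference. The 34 members called higher in GFP lie at low to middle levels, and those of highest RPKM lie on the line of equality.

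The shift was greatest at middle levels. With members grouped by their mean RPKM over the 6 libraries, 0 of 26 members at 100 RPKM or more were past 2-fold between GFP and control siRNA, with a median of 0.14. Of 61 members between 10 and 100 RPKM, 28 were, with a median of 0.85. Of 34 members under 10 RPKM, 6 were, with a median of 0.23. The pseudocount of 1 damps the differences of the lowest group. By host, 14 of 39 members in ribosomal protein genes, 12 of 36 in noncoding host genes, 2 of 6 in translation factor genes and 6 of 38 in other genes were higher in GFP.

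In the noncoding host SNHG1 (small nucleolar RNA host gene 1), all 8 members, SNORD22 and SNORD25 to SNORD31, were past 2-fold, with differences of 1.20 (SNORD28) to 1.94 (SNORD30). SNORD30 had 439 reads in GFP, 327 in wild type, 211 in T275M, 170 in G302V, 137 in control siRNA and 392 in DDX3X siRNA. Summed, the 8 members had 64.0 CPM in GFP, 46.0 in wild type, 43.3 in T275M, 36.9 in G302V, 21.3 in control siRNA and 25.7 in DDX3X siRNA. All 4 plasmid libraries lay above both siRNA libraries, and the order within the plasmid arm was that of the sum over all members. The log2 ratio of the summed reads was 1.59 (interval 1.502 to 1.68) between GFP and control siRNA. The row of SNHG1 itself was at 94.3 RPKM in control siRNA and 165 in GFP, a difference of 0.80 that did not pass 2-fold.

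GAS5 (growth arrest specific 5), a noncoding host whose spliced RNA is known to be degraded in translating cells, carried 10 members within 3571 bases, the largest cluster. Their sums were 61.7 CPM in GFP, 46.6 in wild type, 46.2 in T275M, 42.3 in G302V, 39.3 in control siRNA and 54.4 in DDX3X siRNA. The sum in DDX3X siRNA was above that of all 3 DDX3X plasmid libraries, which does not hold for each member, SNORD78 and SNORD75 among the exceptions. Between GFP and control siRNA, 3 of the 10 passed 2-fold (SNORD81, SNORD78 and SNORD75), and the differences ran from 0.35 to 1.23. The row of GAS5 differed by 0.17. The 4 members in RPL13A, SNORD32A, SNORD33, SNORD34 and SNORD35A, differed by 0.01 to 0.22, and RPL13A itself by -0.01.

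**Figure D4:**
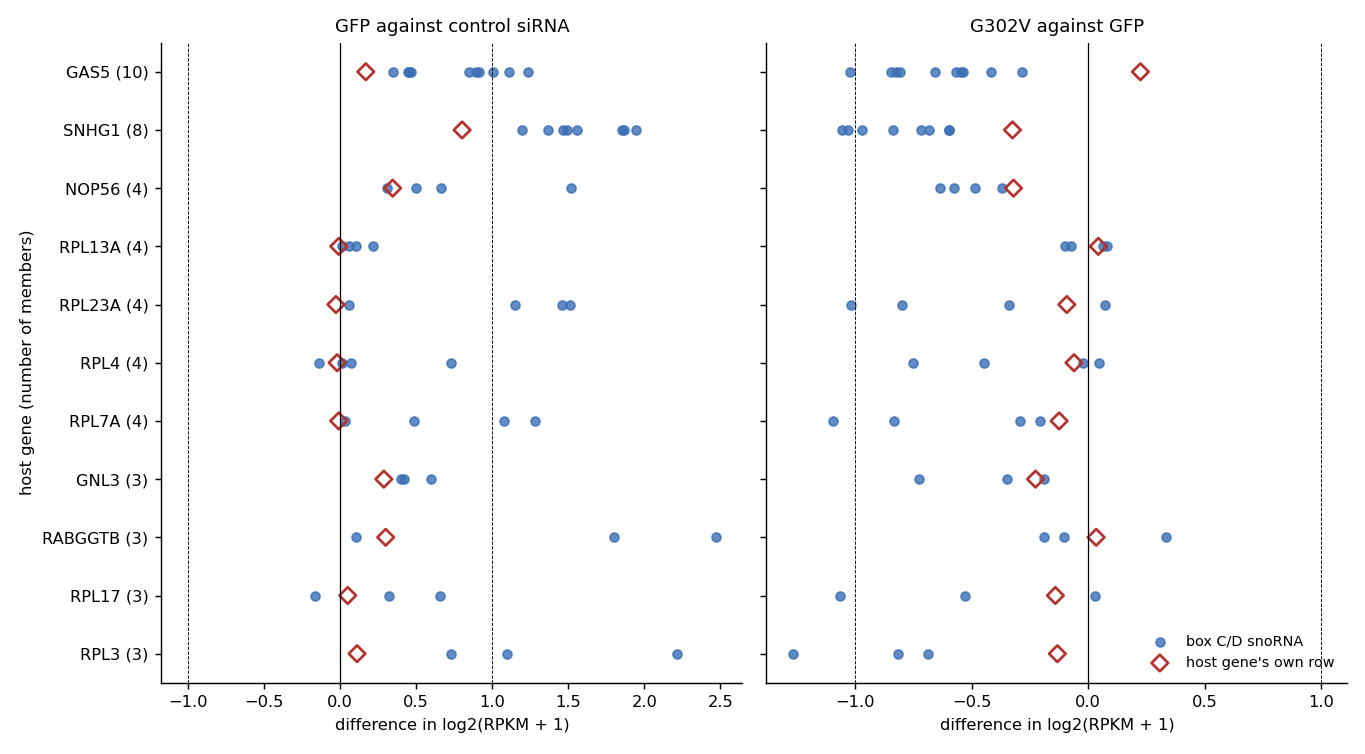
Difference in log2(RPKM + 1) of each compared member (filled circles) and of the host gene's own row (open diamonds) for 11 hosts with 3 members or more, in GFP against control siRNA (left) and G302V against GFP (right). Dashed lines mark 2-fold. The SNHG1 members lie together to the right of their host on the left and to the left of it on the right, while members of RPL23A and RABGGTB are spread out on the left.

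Within the plasmid arm, the median member lay below GFP in every DDX3X library. Between wild type and GFP, 0 of 123 members were past 2-fold (0.248% of all genes called), with a median of -0.19 against 0.05 for all genes. Between T275M and GFP, 0 were higher and 4 lower of 121 (0.372% called), with a median of -0.31 against 0.07. Between G302V and GFP, 0 were higher and 15 lower of 122 (0.305% called), with a median of -0.45 against 0.03. Of short rows, 2.34%, 4.15% and 4.59% were called in either direction, and 0.669%, 1.73% and 3.53% were lower. Of members, 0%, 3.31% and 12.3% were called, every call being lower. The summed reads gave log2 ratios of -0.14 (interval -0.15 to -0.12), -0.20 (-0.22 to -0.18) and -0.23 (-0.24 to -0.21). These comparisons share the GFP library, which was the highest of the plasmid arm for 87 of the 127 members (68.5%) and for 22.4% of the 13039 other genes at 1 RPKM or more. G302V was the lowest of that arm for 76 members (59.8%) and for 28.4% of those genes. The strict order GFP, wild type, T275M, G302V held for 42 members (33.1%) and for 6.97% of those genes. The sort was the same in these 4 libraries. G302V was also the shallowest of them.

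Some of the largest falls from GFP were in members with few reads. SNORD119, in SNRPB (a core spliceosomal protein gene), had 36 reads in GFP, 18 in wild type, 12 in T275M, 2 in G302V, 11 in control siRNA and 41 in DDX3X siRNA. G302V was the lowest library and GFP the highest, and G302V differed from GFP by -2.41 (interval -2.95 to -1.41) and T275M by -1.11 (interval -1.87 to -0.33). The row of SNRPB differed by -0.25 and -0.24. SNORD100 differed by -1.54 (interval -2.09 to -1.01) between G302V and GFP on 32 and 125 reads, while RPS12 differed by 0.09. SNORD51, in EEF1B2 (an elongation factor subunit), had 33 reads in GFP, 23 in wild type, 22 in T275M, 9 in G302V, 27 in control siRNA and 56 in DDX3X siRNA. It differed by -1.28 (interval -2.16 to -0.39) between G302V and GFP, and EEF1B2 by -0.18.

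SNORD15B, in the ribosomal protein gene RPS3, was lower in both mutant libraries. It had 92 reads in GFP, 86 in wild type, 32 in T275M, 30 in G302V, 36 in control siRNA and 88 in DDX3X siRNA. In CPM these are 1.68, 1.37, 0.673, 0.686, 0.533 and 0.487, so that GFP and wild type stood above the other 4. The difference from GFP was -1.15 (interval -1.67 to -0.64) in T275M and -1.13 (interval -1.66 to -0.61) in G302V, and that of RPS3 was -0.04 and -0.02. Its relative SNORD15A, in the same host, had 15, 9, 13, 3, 4 and 34 reads in the order GFP, wild type, T275M, G302V, control siRNA and DDX3X siRNA, too few to separate most libraries. SNORD20, in NCL, had 32 reads in GFP, 20 in wild type and 11 in T275M, a difference of -1.09 (interval -1.91 to -0.26) between T275M and GFP. SNORD82, also in NCL, differed by -0.29 in that comparison on 1036 and 1465 reads. The fourth member called in T275M was SNORD1B, in SNHG16, with 0 reads there and 11 in GFP, which is at least 3.18-fold lower when 3 reads are taken as the floor of the library.

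The 15 members called lower in G302V against GFP were spread over hosts. They were SNORD119, SNORD100, SNORD51, SNORD1B, SNORD83A, SNORD84, SNORD15B, SNORD21, SNORD24, SNORD58C, SNORD28, SNORD30, SNORD4A, SNORD77 and SNORD2. Of these, 10 had a mean of 10 to 100 RPKM, 5 had less and 0 had more. The 8 SNHG1 members had differences of -1.06 to -0.59, and their summed reads a log2 ratio of -0.80 (interval -0.88 to -0.71), where SNHG1 itself differed by -0.32. The 10 GAS5 members had differences of -1.02 to -0.28, and their sum a ratio of -0.55 (interval -0.63 to -0.46), where GAS5 itself was higher by 0.22. The 4 RPL13A members had differences of -0.10 to 0.08. Of 112 members with a host value, 89 lay below their host and 23 above.

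Between the mutant and wild type DDX3X libraries fewer members differed. Between T275M and wild type, 0 of 120 members were past 2-fold (0.0771% of all genes and 2.69% of short rows called), with a median of -0.10. Between G302V and wild type, 2 of 119 were, both lower (0.185% of all genes and 2.03% of short rows called), with a median of -0.23 against -0.03 for all genes. The 2 were SNORD84 and SNORD119. SNORD84, in DDX39B (an RNA helicase of mRNA export), had 91 reads in GFP, 105 in wild type, 55 in T275M, 31 in G302V, 49 in control siRNA and 138 in DDX3X siRNA. G302V, at 0.709 CPM, was below wild type, at 1.67, with a difference of -1.15 (interval -1.72 to -0.61), and next to control siRNA, at 0.726. DDX39B differed by -0.27. SNORD119 differed by -1.43 (interval -2.02 to -0.38) on 2 and 18 reads.

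Few members were past 2-fold between the DDX3X siRNA and control siRNA libraries. Of 125 members compared between DDX3X siRNA and control siRNA, 1 was past 2-fold and higher, and 0 were lower. The share called was 0.11% of all genes and 1.24% of short rows. The median of members was 0.08 against -0.02 for all genes. The interval lay above 0 for 25 members, below for 17 and included 0 for 83, again without such counts for all genes. The called member was SNORD45A, at 0.780 and 0.296 CPM on 141 and 20 reads, a difference of 1.18 (interval 0.62 to 1.75), while RABGGTB differed by 0.18. The summed reads had a log2 ratio of -0.05 (interval -0.06 to -0.04), and this sum changed sign, to 0.033, under median-ratio scaling of the libraries. The 36 members in noncoding hosts had a median of 0.31, and the 39 in ribosomal protein genes a median of 0.01. None of the 10 GAS5 members passed 2-fold, but the differences of all 10 lay above 0 (45.5% of all genes), from 0.32 (SNORD78) to 0.62 (SNORD74). Their summed reads had a log2 ratio of 0.47 (interval 0.41 to 0.53). GAS5 itself differed by 0.12. SNORD47, the GAS5 member with the most reads, had 673 reads in GFP, 573 in wild type, 453 in T275M, 440 in G302V, 604 in control siRNA and 2234 in DDX3X siRNA, or 12.3, 9.13, 9.53, 10.1, 8.95 and 12.4 CPM.

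RNA of genes for the box C/D particle and its assembly differed by less than 2-fold between libraries, and protein was not measured. Of 14 genes for core proteins and for assembly and processing factors, 0 passed 2-fold in any of the 7 comparisons. Over all genes, 0.0771% to 0.503% were called in these comparisons, so the 0 does not set the 14 apart. FBL was at 410 RPKM in GFP, 379 in wild type, 335 in T275M, 329 in G302V, 388 in control siRNA and 334 in DDX3X siRNA. NOP56, which is itself a host of 4 members, was at 266, 248, 221, 213, 209 and 198 RPKM in the same order, and NOP58 at 149, 146, 138, 115, 126 and 116. Between G302V and GFP, the differences of all 14 lay below 0, from -0.36 to -0.02, where 45.2% of all genes lay below 0. For 10 of the 14 the counting interval lay below 0, without such counts for all genes. Between DDX3X siRNA and control siRNA, 11 of 14 lay below 0, with differences of -0.44 to 0.16, where 54.5% of all genes lay below 0. NUFIP1, ZNHIT3, ZNHIT6, RUVBL1, RUVBL2, PIH1D1, RPAP3 and NOLC1 (assembly), SNU13 (listed as NHP2L1), AQR, a splicing helicase, and DBR1, the debranching enzyme, were the others of the list.

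**Figure D5:**
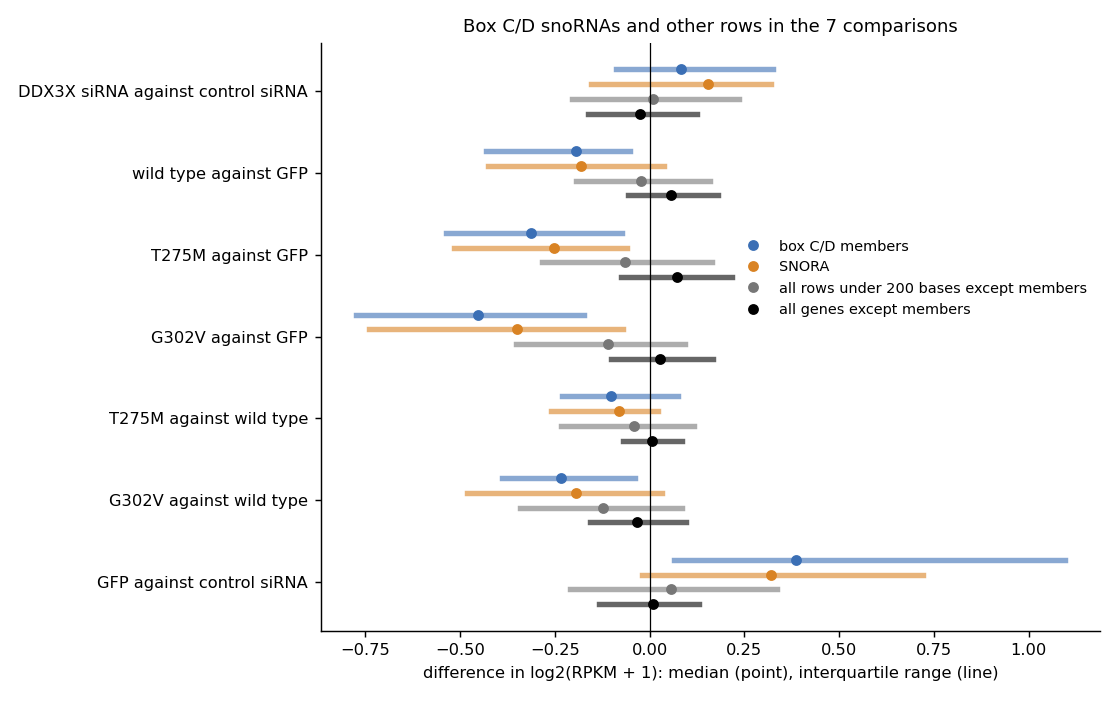
Median (point) and interquartile range (line) of the difference in log2(RPKM + 1) in each of the 7 comparisons, for box C/D members, SNORA symbols, all rows under 200 bases that are not members, and all genes that are not members. The medians of members and SNORA symbols lie to the left of that of all other genes in wild type, T275M and G302V against GFP and to the right of it in GFP against control siRNA, and the median of all short rows lies between.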

How the data were processed

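The 6 HEK293T libraries were made from about 1 µg of total RNA with TruSeq RNA v2 kits. The sources used here do not give how RNA was selected, by poly(A) tail or otherwise, or whether the libraries can hold RNA this short. Row levels are therefore not amounts of mature snoRNA. Per the file headers, the authors deposited RPKM, which the study's methods call FPKM. Per the methods, reads were aligned with BWA (0.5.5 in the submitters' processing notes, beside cutadapt) to NCBI Build 37, RefSeq, exon junctions and AceView, and duplicates were removed. The row of SNORD36B, of 71 bases, nevertheless holds 4622 reads in GFP. The division of reads among near-identical copies is not given. Reads were recovered from RPKM and row length, with 100% of the 7423 to 9032 checked rows per library within 0.1 of a whole number. Groups came from the titles. In the shallowest library, 3 reads are 0.0686 CPM. Differences are of log2(RPKM + 1), which understates changes of low rows. Hosts and introns came from GENCODE 44 on GRCh37. Python 3.11.15, pandas 2.3.3 and scipy 1.17.1 were used, and code was tested on simulated data. Members, gene lists and tests were chosen with earlier results of these data known. Members are named when they have the 12 highest mean CPM, or the 3 largest rises or falls past 2-fold with 30 reads, lie in GAS5, SNHG1 or RPL13A, or were named in earlier results (SNORD15A, SNORD15B, SNORD84 and SNORD100), with their hosts. Others were named after their values were seen. Comparisons with other libraries in place of GFP or control siRNA were added after the data were seen. Other alternatives were pseudocounts of 0.1 and 10, no filter, 10 RPKM, median-ratio scaling, CPM, 1.5-fold, and sums over all rows, without the top member and without rows on exons. Values and sequences of a few members and hosts are not reported here.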

Additional observations from a re-analysis of the deposited data

How the results depend on the processing

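No paired analysis was possible because each group held 1 library. Reads are not independent molecules, so intervals cover counting error only. Depth limits members under about 30 reads, whose intervals often span more than 1 on the log2 scale.

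Counts of members past 2-fold followed the pseudocount and the threshold. Shares over all genes are not given at these alternative settings, so the counts there do not set members apart from other genes. With a pseudocount of 10, they were 0 for DDX3X siRNA against control siRNA, 0 for T275M and 1 for G302V against GFP, 0 for G302V against wild type and 18 for GFP against control siRNA. With CPM in place of RPKM they were 0, 0, 0, 0 and 16 for the same comparisons. With a pseudocount of 0.1 they were 4 for DDX3X siRNA, 3 for wild type and 9 for T275M against GFP, and 4 for T275M against wild type. With a minimum of 10 RPKM they were 0 for DDX3X siRNA, 1 for T275M against GFP and 1 for G302V against wild type. Median-ratio scaling, which moved the median of all genes by -0.10 in wild type against GFP and by less elsewhere, gave 2 for DDX3X siRNA, 1 for wild type and 7 for T275M against GFP. At 1.5-fold they were 7 for DDX3X siRNA, 15, 26 and 47 for wild type, T275M and G302V against GFP, 7 and 16 for T275M and G302V against wild type, and 52 (48 higher) for GFP against control siRNA. At a pseudocount of 0.1, 1 member was higher in wild type than in GFP and 1 was lower in GFP than in control siRNA, where 0 were at a pseudocount of 1.

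Log2 ratios of summed reads reversed once, to 0.033, for DDX3X siRNA under median-ratio scaling. Under that scaling they were -0.24, -0.30 and -0.27 for wild type, T275M and G302V against GFP and -0.029 for G302V against wild type. Without rows on annotated exons they were -0.12, -0.24 and -0.34 against GFP, and -0.12 and -0.22 for T275M and G302V against wild type. Without SNORD36B, the member with the most reads, GFP against control siRNA was 0.29. With wild type, T275M or G302V in place of GFP, that ratio was 0.13, 0.069 or 0.044 and the count 16 for T275M and 10 for G302V. With DDX3X siRNA in place of control siRNA, the ratio was 0.32. Of 19 named calls, 16 fell below 2-fold under at least 1 alternative, 15 of them with a pseudocount of 10 and 16 with CPM, while median-ratio scaling and a pseudocount of 0.1 lost 0. On rows this short, 1 added to CPM weighs more than 1 added to RPKM, so the CPM alternative acts like a larger pseudocount. What else moved the calls was not tested.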

Other observations

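H/ACA snoRNAs, which guide pseudouridylation and also lie in introns, had median differences of the same sign as the box C/D members in all 7 comparisons. SNORA symbols summed to 733 CPM in GFP, 651 in wild type, 626 in T275M, 644 in G302V, 654 in control siRNA and 623 in DDX3X siRNA. Between GFP and control siRNA, 11 of 68 compared were higher and 0 lower, with a median of 0.32. Between G302V and GFP, 0 were higher and 6 of 68 lower, with a median of -0.35. GFP was the highest of the 4 plasmid libraries for 44 of 80 SNORA symbols (55.0%).

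MicroRNA rows and other rows under 200 bases had medians nearer to 0 in both comparisons. Between GFP and control siRNA, 4 of 180 microRNA precursor rows were higher and 5 lower, with a median of 0.02, and 54 other rows under 200 bases had 0 calls and a median of 0.02. In G302V against GFP, 3 of 165 microRNA precursor rows were higher and 4 lower, with a median of -0.05, and 53 other rows under 200 bases had 0 calls and a median of -0.08. The 10 SCARNA symbols, guides of the Cajal body, had 0 calls and a median of 0.003 between GFP and control siRNA, where their summed reads had a log2 ratio of 0.31 (interval 0.17 to 0.44). Their median was -0.29 between G302V and GFP, with 7 of 10 below 0 (45.2% of all genes). It was -0.22 between T275M and GFP, with 6 of 10 below 0 (37.8% of all genes), again with 0 calls.

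A few members went against the majority between GFP and control siRNA, none past 2-fold. SNORD121B differed by -0.82, SNORD1C by -0.78, SNORD60 by -0.66 on 56 and 112 reads, and SNORD49A by -0.58 on 136 and 253 reads. SNORD41, in TNPO2, differed by 0.76 between G302V and GFP, on 40 and 28 reads. These were chosen after their values were seen.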
